A study of Mus musculus with 46 samples.

Results

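Mammary tumors from mice that lack Brca1 were compared with normal mammary glands of pregnant mice by their microRNAs (miRNAs). The members were the 5 arrays labelled Brca1-/-p53+/- and the 5 arrays labelled normal FVB pregnant, 10 of the 46 arrays of the series. The other 36 arrays were tumors of 7 further mouse models, and they were used here only as a background for the Brca1-/-p53+/- tumors. The tumors came from mice of a mixed 129B6/FVB background whose floxed Brca1 was deleted by cre recombinase under the mouse mammary tumor virus (MMTV) promoter and which carried 1 intact copy of the tumor suppressor p53. The glands came from untreated FVB females late in pregnancy, a stage at which the gland is rich in epithelium. Tumor state, Brca1 and p53 genotype, strain and pregnancy therefore differed together between the groups and cannot be told apart. Glands of the 129B6/FVB strain were not analysed here. Of the other models, the C3TAg tumors, driven by viral T/t antigens, and the tumors of MMTV-driven oncogenes were of FVB background. The p53-/- tumors came from a Balb/C transplant model whose floxed p53 was deleted by MMTV-cre. In the comparison with these models, strain, transplantation and driver gene differed together and cannot be told apart. MMTV-cre acts mainly in mammary epithelium, so other cells of a tumor may have kept Brca1. Tumors were taken from individual mice, whereas the labels of the normal glands do not say whether each came from a separate mouse, and p-values then measure only the spread between these samples. Because whole tissue was used, fewer cells of a type and less RNA per cell cannot be told apart.

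MiRNAs are short RNAs that pair with messenger RNAs, mainly through bases 2 to 8 (the seed), and lower their stability and translation. Members of a family share a seed and can share targets. In epithelium, the miR-200 family holds down the repressors ZEB1 and ZEB2 and thereby keeps cells attached and polarised. The BRCA1 protein repairs broken DNA by homologous recombination. Tumors without it are mostly of the basal type in women and in mice. Some miRNAs are tied to BRCA1 itself, such as miR-182 and the miR-146 pair, which can target its messenger RNA, and miR-155, whose gene the BRCA1 protein represses in other cells.

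The lowest miRNAs in the tumors included the miR-200 family, whose mature sequences are shown because the family is made of 2 seed groups and some of its members are nearly identical. The sequences are those of RefSeq (mouse build GRCm38.p6), written 5′ to 3′ with the seed in capitals. miR-200a (chr4:156054911-156054932), miR-200b (chr4:156055685-156055706) and miR-429 (chr4:156053916-156053937) lie side by side on the minus strand of chromosome 4, and miR-200c (chr6:124718324-124718346) and miR-141 (chr6:124717917-124717938) on the minus strand of chromosome 6.
miR-200a: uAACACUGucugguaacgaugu
miR-141: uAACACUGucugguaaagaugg
miR-200b: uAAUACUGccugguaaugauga
miR-200c: uAAUACUGccggguaaugaugga
miR-429: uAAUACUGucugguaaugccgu
The seed AACACUG is shared by miR-200a and miR-141, which differ at 2 of 22 positions counted from the 5′ end. The seed AAUACUG is shared by miR-200b, miR-200c and miR-429, and miR-200b and miR-200c also differ at 2 of 22 positions. Whether labelled RNA of one member bound the probe of a near-identical one was not tested.

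Other miRNAs that the results turn on are shown by seed as well. miR-148a and miR-152, both lower in the tumors, have the seed CAGUGCA, and miR-10a and miR-10b, from 2 different Hox gene clusters, differ at 1 of 23 positions. miR-103 and miR-107 differ at 1 of 23 positions too, and their probes may not separate them.
miR-148a: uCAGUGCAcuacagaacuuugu
miR-152: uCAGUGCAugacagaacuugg
miR-182: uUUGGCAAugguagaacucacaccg
miR-146b: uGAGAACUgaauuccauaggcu
miR-10a: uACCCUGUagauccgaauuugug
miR-10b: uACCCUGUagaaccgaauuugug
miR-103: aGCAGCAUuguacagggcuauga
miR-107: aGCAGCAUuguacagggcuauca
Among the miRNAs that were higher in the tumors, 7 on which the results turn are shown, and no seed is shared between them.
miR-691: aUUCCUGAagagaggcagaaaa
miR-717: cUCAGACAgagauaccuucucu
miR-704: aGACAUGUgcucugcuccuag
miR-764-5p: gGUGCUCAcauguccuccu
miR-184: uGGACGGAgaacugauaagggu
miR-546: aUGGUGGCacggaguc
miR-130b: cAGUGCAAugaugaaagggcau

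The Brca1-/-p53+/- arrays were less uniform than those of the normal gland, and this bears on each result. Each array carried 4 spots for each of 334 mouse miRNAs. The floor of an array is the 5th percentile of its spots, and above the floor means more than 3 times this value. On tumor arrays 1 to 5 the floor was 26.1, 20.5, 35.5, 147 and 100.4 array units, against 21.3 to 34.6 on the normal arrays. The 90th percentile of the spots was 1936 to 5324 on the tumor arrays and 9576 to 16673 on the normal arrays, so the tumor arrays spanned a narrower range of signal. On tumor arrays 1, 2 and 3 the 4 spots of a miRNA had a median SD of 1.23, 0.89 and 0.76 on the log2 scale, against 0.38 and 0.23 on arrays 4 and 5 and 0.14 to 0.19 on the normal arrays. Spots near the centre of tumor arrays 1 to 3 read above spots near the edge by 1.79, 0.86 and 0.49 (log2), those of array 4 read below by 0.58 and those of array 5 above by 0.05, and the difference was at most 0.07 in either direction on the normal arrays. Pairs of tumor arrays correlated at 0.60 to 0.91 over the miRNAs and pairs of normal arrays at 0.94 to 0.99. The part of these differences in any result was not tested directly, and values from arrays 4 and 5 alone and from arrays 1 to 3 alone are given where they matter.

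The first question was which miRNAs distinguished the tumors from the gland. With each array set to the median of its spots, 124 miRNAs were higher in the tumors (37.1% of 334) and 112 were lower (33.5%), 70.7% in either direction, at an adjusted p under 0.05 (limma with Benjamini-Hochberg adjustment, as for each adjusted p here). Of these, 74 higher and 74 lower ones had tumor and normal arrays that did not overlap, where non-overlap was met by 22.5% of all miRNAs in each direction and 44.9% in either. The median difference over all miRNAs was 0.13 on the log2 scale. Brightness went with direction. Among the 84 miRNAs with the lowest mean signal 82 were higher and none was lower, with a median log2 difference of 1.95, and among the 84 brightest 1 was higher and 65 were lower, with a median of -2.07. This comparison uses the same arrays as the differences and is a description.

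The 2 directions stood on different ground. Of the 112 lower miRNAs, 111 were above the floor on all 5 normal arrays and 83 on at least 4 arrays of both groups. Of the 124 higher ones, 87 were above it on no normal array and only 13 on at least 4 arrays of both groups. The floor itself lay 1.01 (log2) closer to the array median on the tumor arrays than on the normal arrays. Of the 124 higher miRNAs, 123 had a difference above that size. Smaller differences rarely pass the test at the spread of these arrays, so this count cannot weigh the part of the floor, which was not tested. Other scalings moved the split of the calls. Setting arrays to their 75th percentile gave 185 higher and 40 lower (82.2% higher), and setting them to their brightest miRNAs gave 207 and 23 (90%). Quantile normalization gave 52 and 61 (46%) and unscaled signals 82 and 99 (45.3%). Subtracting the floor gave 38 and 98 (27.9%) when nothing else was done, and 201 and 27 (88.2%) when arrays were then set to their 90th percentile. Under all 7 of these scalings 23 miRNAs (6.89% of 334) were called lower and 34 (10.2%) higher, and in the following text these are named as holding under every scaling. All 23 lower ones and 27 of the 34 higher ones were also called in 4 settings chosen after seeing the data, which used tumor arrays 4 and 5 only, tumor arrays 1 to 3 only, spots freed of their position trend, and a local floor.

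**Figure D1:**
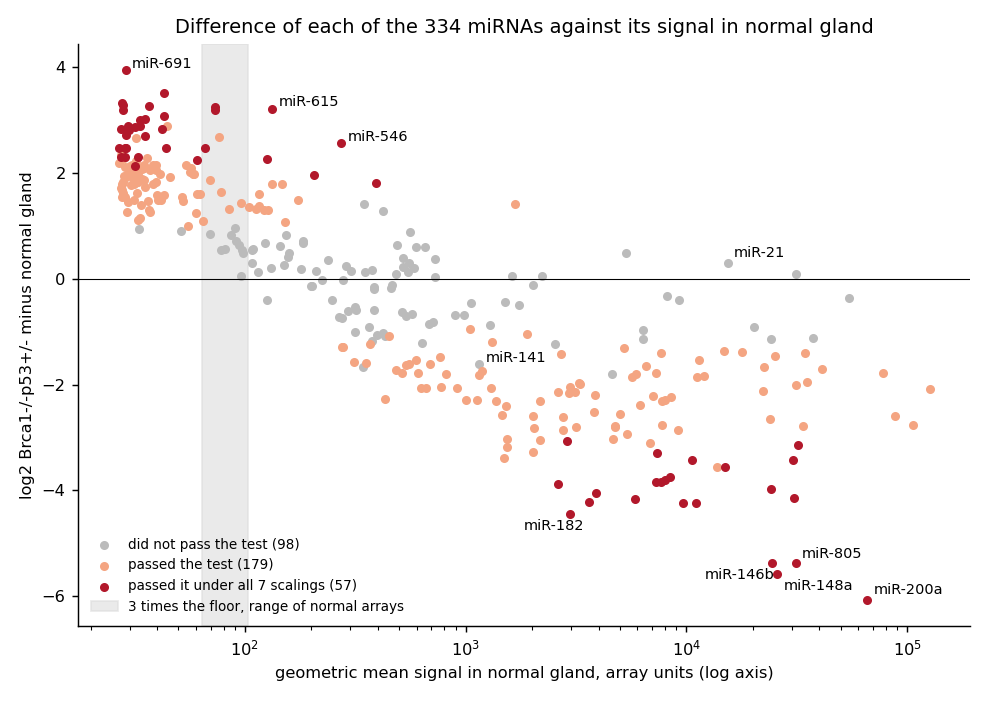
Log2 difference between tumors and normal gland (vertical) against the geometric mean signal in normal gland (horizontal, log axis, array units) for each of 334 miRNAs, with the range of 3 times the floor on the normal arrays in grey. Of the miRNAs, 57 in dark red passed the test under all 7 scalings, 179 in orange passed it with median scaling and 98 in grey did not pass, and the higher ones sit mostly at or left of the grey band while the lower ones sit to its right.

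The miR-200 family had the lowest median of the 26 lists, with 4 of 5 members lower and a median log2 difference of -4.22 (0.13 over all miRNAs). Of all miRNAs 33.5% were lower, and of the 84 brightest 65 were, with a median of -2.07. Signals of miR-200a on the 5 tumor arrays were 2171, 771, 95.3, 901 and 3939, and on the 5 normal arrays 48355, 40072, 71172, 94621 and 93268. Each tumor array was below each normal array, and tumor array 3 was below 3 times its floor. The difference was -6.07 ± 0.66 (log2, standard error), 67.1-fold lower in the tumors (adjusted p = 3.24e-06). miR-200b read 735, 372, 96.2, 930.5 and 872 in the tumors and 7294, 5000.5, 6069, 17787 and 20839 in the gland (-4.24 ± 0.55, adjusted p = 1.13e-05). Its near-identical relative miR-200c read 298, 178, 94, 776 and 596 in the tumors and 3274, 3716, 3549, 11489 and 13996 in the gland (-4.17 ± 0.47, adjusted p = 3.50e-06). For all 3, the tumor and normal arrays did not overlap. miR-429, encoded beside miR-200a and miR-200b, read 133, 33.4, 56.4, 1535 and 455 in the tumors, above the floor on 3 of 5, and 2818, 1781, 2263, 6625 and 8423 in the gland (-4.22 ± 0.52, adjusted p = 7.96e-06). These 4 held under every scaling, where 6.89% of all miRNAs were lower under every scaling. The smallest difference of miR-200a over all settings other than leaving out an array was -3.93 and that of miR-200c -2.04.

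miR-141 was the 1 member that did not pass the test. Its signals were 1271, 479, 79.3, 773 and 126 on the tumor arrays and 845, 469, 763, 2676 and 2488 on the normal arrays, so that the groups overlapped, and the difference of -1.62 ± 0.80 missed the threshold (adjusted p = 0.0823). The difference was above 0 with the brightest miRNAs as reference (0.52) and after floor subtraction with scaling to the 90th percentile (0.16). Tumor arrays disagreed. With tumor arrays 4 and 5 only the difference was -3.21 (adjusted p = 0.00167), and with tumor arrays 1 to 3 only it was -0.55 (adjusted p = 0.487). It also passed the threshold without tumor array 1 or without tumor array 2, at -2.15 in both cases. Tumor array 3, at 79.3, was the lowest in signal and tumor array 1 the highest.

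**Figure D2:**
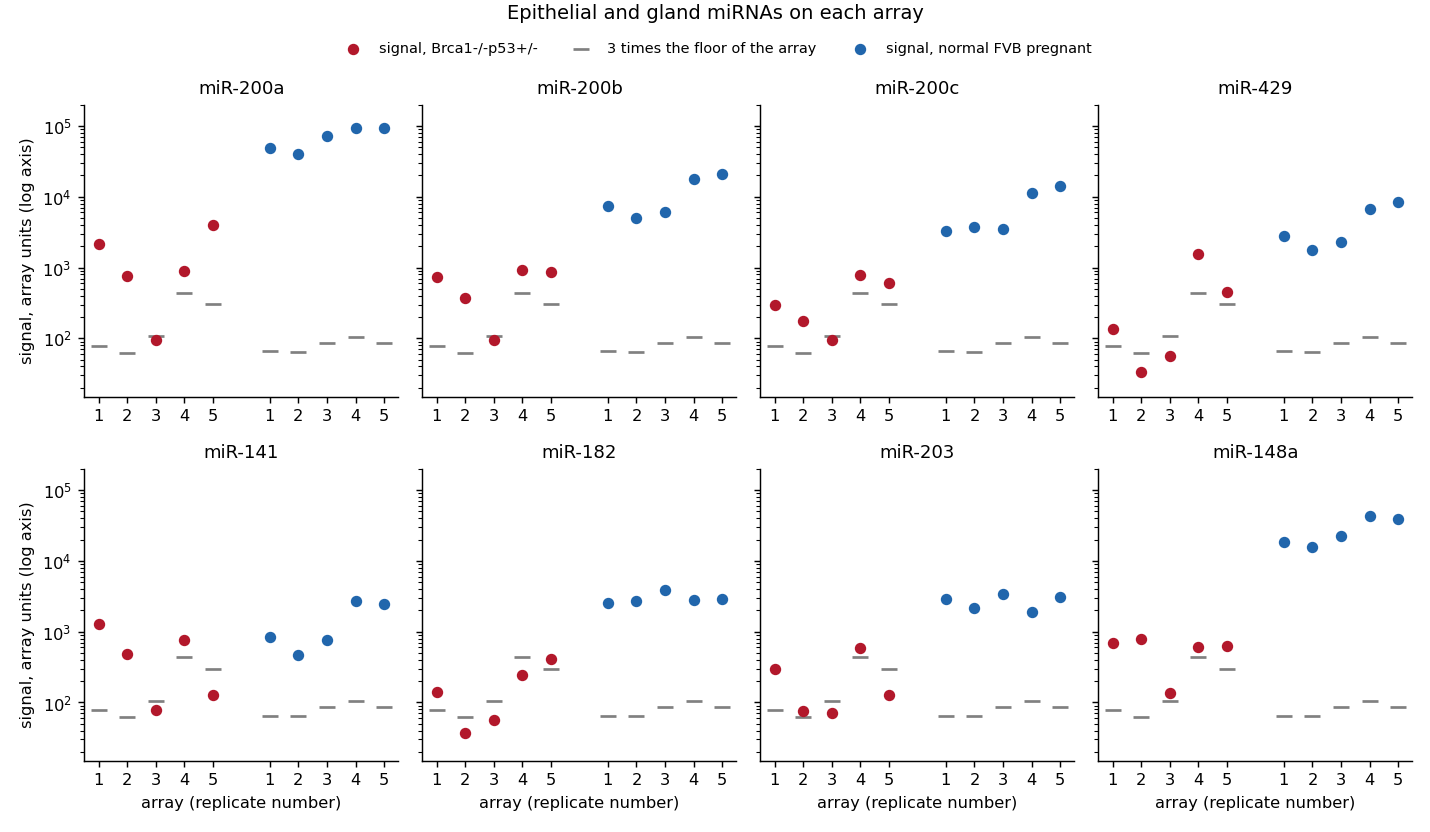
Signal of 8 miRNAs on each array (vertical, log axis, array units), with the 5 Brca1-/-p53+/- arrays in red, the 5 normal FVB pregnant arrays in blue and 3 times the floor of each array as a grey bar. The normal arrays are above all tumor arrays for 7 of the miRNAs, miR-141 overlaps, and many tumor values sit at or near the grey bars.

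Among other epithelial miRNAs, 2 of 5 were lower (list median -0.60), near the 33.5% of all miRNAs. With the brightest miRNAs as reference 3 were higher and 1 lower (median 1.53), and at the 75th percentile 2 and 1 (median 0.89). miR-203, which drives differentiation in stratified epithelium by repressing p63, read 294, 75, 72, 585 and 126 in the tumors and 2882, 2165, 3462, 1892 and 3058 in the gland (-3.87 ± 0.51, adjusted p = 1.24e-05) and held under every scaling. It was above the floor on 3 of 5 tumor arrays, so the size of its difference is uncertain. miR-205, a miRNA of basal mammary cells that also represses ZEB1 and ZEB2, read 12021, 1131, 183, 1949 and 2429 in the tumors and 4857, 5584, 6439, 12321 and 20639 in the gland. Tumor array 1 exceeded 3 of the normal arrays in signal while tumor array 3 was the lowest of all, and the difference of -2.24 ± 0.77 (adjusted p = 0.0155) did not hold under every scaling. With tumor arrays 1 to 3 only it did not pass (-1.54, adjusted p = 0.0986), nor without tumor array 4 (-1.89, adjusted p = 0.0517). As a check of the labelled epithelial tissue, the 5 members of the miR-200 family summed to 2.98 to 19.9 times the array median on the tumor arrays and to 189 to 399.7 times on the normal arrays, and 5 of 5 were above the floor on all normal arrays but 0 of 5 on all tumor arrays.

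The 3 miRNAs of the miR-183 cluster, transcribed together in sensory and other epithelia, were all lower under median scaling, and 1 of them at the 75th percentile, with the brightest miRNAs as reference and after floor subtraction with scaling to the 90th percentile. Of all miRNAs 33.5% were lower. By mean signal all 3 lie among the 83 miRNAs next below the 84 brightest, of which 40 were lower (median -1.07). miR-182 read 142, 36.6, 56.6, 241 and 407 in the tumors, above the floor on 2 of 5, and 2586, 2727, 3944, 2836 and 2930.0 in the gland (-4.45 ± 0.40, adjusted p = 6.70e-07). miR-183 read 149.8, 51.7, 92.2, 445 and 147, above the floor on 2 of 5, against 327, 275, 531, 789.6 and 954 (-1.79 ± 0.43, adjusted p = 0.00196), and miR-96 read 319, 64.7, 157, 457 and 258 against 599, 418, 708, 905 and 971 (-1.60 ± 0.45, adjusted p = 0.00483). Since miR-182 and miR-183 were above the floor on only 2 tumor arrays each, the sizes of the 3 differences are not ranked. miR-182 held under every scaling, while miR-183 and miR-96 were above 0 with the brightest miRNAs as reference (0.35 and 0.53) and after subtraction of the floor with scaling to the 90th percentile (0.08 and 0.28).

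miR-182 is also one of 5 miRNAs linked to Brca1, of which 3 were lower and 2 did not pass (list median -2.31), where 33.5% of all miRNAs were lower. By mean signal only miR-146b was among the 84 brightest, of which 65 were lower. miR-182 and miR-146 were among the next 83, of which 40 were lower, and miR-155 and miR-9 among the 83 below those, of which 7 were lower. miR-146b, which dampens innate immune signalling through NF-kB, read 396, 147, 317, 1691 and 1388 in the tumors and 15420.1, 14466, 20875, 39803 and 45614 in the gland, and its difference of -5.38 ± 0.39 (41.5-fold, adjusted p = 5.53e-08) held under every scaling. The highest tumor array, at 1691, was far below the lowest normal array, at 14466. Its paralog miR-146, which has the same seed and differs at 2 of 22 positions, read 388, 106, 237, 921 and 1124 in the tumors and 2106, 1171, 2566, 2271 and 3342 in the gland (-2.31 ± 0.40, adjusted p = 1.34e-04). miR-155 read 84, 47.4, 88.9, 934 and 409 in the tumors and 148, 189.6, 302, 149 and 268 in the gland, with a difference of -0.13 ± 0.41 (adjusted p = 0.791) that turned sign and passed the test under 3 scalings (1.36 to 2.00). Quantitative PCR in the study tracked the array values of miR-155 weakly or not at all. miR-9 had a difference of 0.55 ± 0.46 (adjusted p = 0.294), above the floor on 2 tumor and 3 normal arrays, and passed as higher under 3 scalings (2.05 to 2.69).

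All 7 miRNAs listed for gland differentiation were lower, with a median of -3.74, and the 4 with the largest differences held under every scaling. Of all miRNAs 33.5% were lower, and of the 84 brightest 65 were. Under every scaling 6.89% of all miRNAs were lower. miR-148a, a miRNA abundant in secretory mammary epithelium and milk, read 687, 781, 136, 613 and 636 in the tumors and 18674, 15491, 22776, 43604 and 39535 in the gland (-5.58 ± 0.61, 47.9-fold, adjusted p = 3.24e-06). Its relative miR-152 with the same seed, encoded on another chromosome, read 170.4, 72, 66.6, 943 and 594 against 3248, 2751, 3652, 4844 and 5567 (-4.04 ± 0.40, adjusted p = 1.15e-06). miR-193, which is also expressed in fat, read 385, 150.1, 898, 4368 and 189.6 in the tumors, with array 4 at 4368 and the others at most 898, and 15002, 13051, 16112, 6245 and 8558 in the gland (-4.25 ± 0.72, adjusted p = 1.24e-04). miR-99a, a regulator of mTOR, read 725, 481, 193, 723 and 1265 against 6429, 6162, 10399.5, 7499 and 13516 (-3.74 ± 0.48, adjusted p = 1.13e-05). The pregnant gland was chosen by the study for its epithelium and this state was not varied here, so the part of pregnancy in these differences cannot be told apart from that of the tumor.

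MiRNAs encoded in the Hox clusters, which mark position along the body axis, were lower in 4 of 4 cases (median -3.42), beside 33.5% of all miRNAs and 65 of the 84 brightest. At the 75th percentile, with the brightest miRNAs as reference and at the 90th percentile, 2 of the 4 were lower. miR-10a read 562, 335, 239, 513 and 953 in the tumors and 8211, 7173, 9962, 5101 and 7000.4 in the gland (-3.84 ± 0.51, adjusted p = 1.40e-05), and miR-10b read 359, 566, 133, 1679 and 870.2 and 7214, 5457, 7592, 8746 and 12594 (-3.80 ± 0.50, adjusted p = 1.21e-05). Both held under every scaling. miR-196a read 169.6, 126, 82.9, 497 and 665 in the tumors against 370.2, 1554, 5611, 1241 and 1701 in the gland (-2.57 ± 0.49, adjusted p = 3.54e-04), and miR-196b had a difference of -3.03 ± 0.59 (adjusted p = 3.91e-04). miR-196b was above the floor on 2 of 5 tumor arrays, so the size of its difference is uncertain. Within this neighbourhood miR-615, which lies in an intron of Hoxc5, went the other way. It read 1594, 69.6, 2237, 3199.9 and 2293 in the tumors and 113, 107, 169.8, 109.8 and 186 in the gland, was above the floor on 5 of 5 arrays in each group, and had a difference of 3.22 ± 0.62 (9.29-fold higher, adjusted p = 3.57e-04) under median scaling. Tumor array 2 was the exception in signal, at 69.6, and read above the normal arrays only once each array was set to its median.

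Abundant miRNAs of most tissues made up much of the rest of the lower group. In the let-7 family, which restrains RAS and LIN28, 8 of 9 members were lower, with a median of -1.78, beside 65 of the 84 brightest miRNAs with a median of -2.07. let-7i read 3060.3, 1132, 2851, 5862 and 6724 in the tumors and 22041, 20489, 38276, 36260.4 and 54176 in the gland (-3.15 ± 0.40, adjusted p = 1.13e-05) and was the 1 member that held under every scaling. let-7a read 13995, 13056, 16607, 34868 and 34441 against 52784, 60339.8, 101553, 75852 and 113276 (-1.78 ± 0.43, adjusted p = 0.00201). miR-98 had a difference of -0.33 ± 0.62 (adjusted p = 0.654). The median of the family was -0.29 when arrays were set to the 75th percentile and 0.35 when set to the brightest miRNAs, so a direction for the family depends on the scaling. The medians of the other epithelial miRNAs, the miR-30 family, the miR-183 cluster, the miR-17-92 cluster and paralogs and the p53-induced miRNAs, and those of stroma, fat, red cells and leukocytes, likewise turned positive with the brightest miRNAs as reference. let-7f passed under median scaling (-1.41 ± 0.52, adjusted p = 0.0238) but not without tumor array 4, tumor array 5 or normal array 1 (adjusted p up to 0.0621).

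In the miR-30 family, known for repressing vimentin and other mesenchymal genes, 4 of 5 members were lower (median -1.85), beside 65 of the 84 brightest miRNAs. After quantile normalization 2 were lower, and with the brightest miRNAs as reference and at the 90th percentile 2 were lower and 1 higher. miR-30c read 1359, 1056, 537, 3149.5 and 2287 in the tumors and 20904, 20452, 31682, 22531 and 26916 in the gland (-3.97 ± 0.44, adjusted p = 3.24e-06), and miR-30b differed by -3.43 ± 0.51 (adjusted p = 4.22e-05). Both held under every scaling, whereas miR-30a-5p (-1.85 ± 0.57) and miR-30d (-1.65 ± 0.49) did not, and miR-30e had a difference of -0.15 ± 0.67 (adjusted p = 0.853). miR-103 and miR-107, which lie in introns of the pantothenate kinase genes, differed by -4.15 ± 0.38 and -3.44 ± 0.44, and both held under every scaling. miR-103 read 1275, 745, 776, 3390.2 and 3929 in the tumors and 22752, 28309.6, 43874, 26530.5 and 36029 in the gland. miR-15b and miR-497, which share the seed of miR-16 and restrain cyclins and Bcl2, differed by -3.29 ± 0.40 and -3.06 ± 0.49 and held as well. miR-805 read 429, 222, 239.5, 1589 and 4104 in the tumors and 27267, 56665, 69880.0, 13861 and 19905 in the gland (-5.38 ± 0.55, adjusted p = 1.94e-06), again under every scaling. The study lists its chromosome as MT (mitochondrial), and whether its probe reads a miRNA was not tested.

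In the miR-17-92 cluster and its paralogs, which promote proliferation and are induced by MYC, 7 of 12 members were lower, 2 higher and 3 did not pass (median -1.98), beside 33.5% of all miRNAs lower and 37.1% higher. The split turned with the scaling, to 2 lower and 4 higher at the 75th percentile, 0 and 5 when the brightest miRNAs served as reference, 1 and 5 at the 90th percentile and 2 and 1 after quantile normalization. The paralogs below have the seed AAAGUGC in common and are shown because they differed in direction.
miR-17-5p: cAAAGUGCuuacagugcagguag
miR-20a: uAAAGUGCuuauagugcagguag
miR-93: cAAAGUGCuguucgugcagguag
miR-106b: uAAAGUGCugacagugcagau
miR-106a: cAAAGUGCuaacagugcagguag
miR-20b: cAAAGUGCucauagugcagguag
miR-17-5p, from chromosome 14, read 630.4, 298, 677, 1386 and 1468 in the tumors and 2662, 1854, 2725, 3532 and 7864 in the gland (-1.97 ± 0.44, adjusted p = 0.00114). miR-106b, from chromosome 5, read 186, 78.2, 443, 1556 and 477 and 2252, 1834, 2584, 3232 and 4554 (-2.87 ± 0.47, adjusted p = 9.33e-05), and its neighbour miR-25 differed by -2.94 ± 0.42. miR-20b, from the X chromosome, read 438, 153, 284, 1492 and 750.4 in the tumors and 140.5, 86.9, 157, 114 and 311 in the gland and was higher by 1.79 ± 0.41 (adjusted p = 0.00127), above the floor on 5 of 5 arrays of both groups. It differs from miR-17-5p and from miR-20a at 2 of 23 positions each. miR-106a, encoded beside miR-20b, had a difference of -0.46 ± 0.44 (adjusted p = 0.366), and the third miRNA of that locus, miR-363, was higher by 1.78 ± 0.51 but above the floor on 2 tumor and 0 normal arrays. miR-20b passed the test as higher under 6 of 7 scalings. No member of the list was lower under every scaling.

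Among miRNAs that p53 induces, 3 of 8 were lower and 2 higher (median -0.60). With the brightest miRNAs as reference and at the 90th percentile 1 was lower and 5 higher, and after quantile normalization 1 and 0. miR-34a, the best known of them, read 265, 558, 181, 1307 and 3363 in the tumors and 1181, 2825, 7674, 2994 and 2986 in the gland (-2.05 ± 0.54, adjusted p = 0.00307). miR-192 and miR-215 were higher by 2.16 ± 0.55 and 1.84 ± 0.54, but neither was above the floor on any normal array. Of 12 miRNAs repressed by MYC, 9 were lower and none was higher (median -2.35). With the brightest miRNAs as reference 1 was lower and 2 higher (median -0.22), after floor subtraction with scaling to the 90th percentile 2 and 1, and after quantile normalization 4 and 0. miR-26b, the member with the largest difference, read 1131, 2708, 350.2, 948 and 2001 in the tumors and 10434, 13398, 17002, 15418 and 20269 in the gland (-3.56 ± 0.66, adjusted p = 2.61e-04). These counts stand beside 33.5% of all miRNAs lower and 65 of the 84 brightest lower.

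A few bright miRNAs did not follow the lower ones. miR-21, an oncogenic miRNA that is high in most breast tumors, read 18036, 6129, 23275, 59930.1 and 10162 in the tumors and 9664, 8912, 18294, 19306 and 28134 in the gland, with a difference of 0.31 ± 0.54 (adjusted p = 0.625) and overlapping groups. It passed the test as higher under 4 scalings, by up to 2.44, and was -0.65 with tumor arrays 4 and 5 only. miR-210, induced by low oxygen, was by contrast one of the lower ones, by -3.27 ± 0.42 (adjusted p = 1.13e-05), at 106, 45.6, 77.7, 807 and 817 against 1339, 1322, 1844, 2962 and 3378. It was above the floor on 3 of 5 tumor arrays. The pair miR-221 and miR-222, which repress the cell cycle inhibitor p27, varied widely between tumors. miR-221 read 953, 303, 3497, 24034 and 5451 in the tumors, from 303 on array 2 to 24034 on array 4, and 4573, 4087, 8038, 7208 and 9706 in the gland (-1.13 ± 0.57, adjusted p = 0.087). miR-222 was likewise lowest on tumor array 2 and highest on tumor array 4 (442, 335, 1014, 8135 and 1501) and differed by -0.49 ± 0.50 (adjusted p = 0.394).

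**Figure D3:**
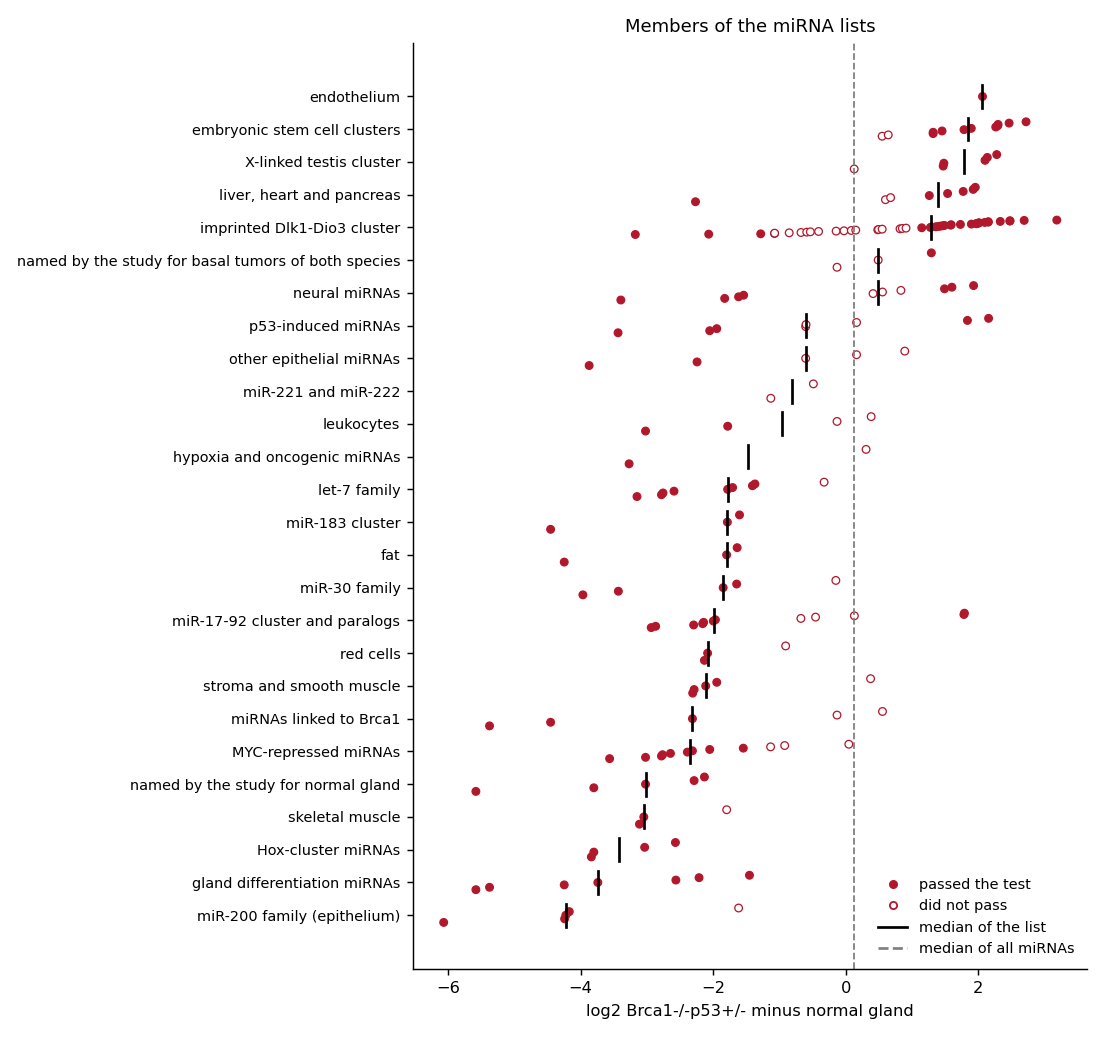
Log2 difference between tumors and normal gland (horizontal) of each member of 26 miRNA lists, with the list median as a black bar and the median of all miRNAs (0.13) as a dashed line. The miR-200 family and the gland and Hox lists lie lowest, and the endothelium list of 1 miRNA and the stem cell and testis clusters lie highest.

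The largest positive differences were those of miRNAs near the floor in the gland. miR-691 read 470.1, 83.4, 834, 1101 and 295 in the tumors and 25, 22.7, 31.4, 37.4 and 29.8 in the gland, above the floor on 4 of 5 and on none of 5 arrays, and differed by 3.94 ± 0.58 (adjusted p = 3.53e-05). Since the gland gives only a bound, it was at least 5.35-fold higher in the tumors. This bound sets the tumor mean against, on each normal array, the lowest level of any miRNA above the floor. By the same measure miR-184, at 184, 60.9, 765, 1502 and 1415 in the tumors and 35, 22.5, 48.1, 48.5 and 79.1 in the gland, was at least 5.96-fold higher. miR-717 read 277, 101, 111, 725 and 442 and 24.4, 22, 28.5, 36 and 29.3 and was at least 3.33-fold higher, miR-704 was at least 3.3-fold and miR-764-5p at least 4.27-fold higher. The fitted differences were 3.52, 3.32, 3.28 and 3.26 (log2), and no fold is drawn from them. All 5 held under every scaling and, after median scaling, had tumor arrays above all normal arrays. Their spots disagreed on some tumor arrays. The 4 spots of miR-717 on tumor array 1 read 24.6, 408, 631 and 930.5, against 21.1, 21.1, 22.8 and 34.5 on normal array 1, and those of miR-691 on tumor array 4 read 188, 1946, 1979 and 2033.

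A smaller set was above the floor in both groups. Of the 13 higher miRNAs above it on at least 4 arrays of both, 5 held under every scaling, namely miR-615, miR-546, miR-290, miR-130b and miR-706. miR-546 read 749, 902, 1311, 2294 and 3368 in the tumors and 123, 282, 398, 263 and 419 in the gland (2.56 ± 0.45, 5.9-fold, adjusted p = 1.61e-04), with every tumor array above every normal array. miR-130b, which has the seed AGUGCAA of the miR-130 family, read 463, 172, 578, 2657 and 1709.5 and 122, 185, 245, 188 and 362 (1.96 ± 0.38, 3.88-fold, adjusted p = 3.85e-04), and tumor array 2 lay among the normal arrays in signal. miR-706 read 1379, 1294, 725, 1862 and 1235 and 339, 245, 346, 499.8 and 632 (1.80 ± 0.54, adjusted p = 0.00732), and its groups overlapped after scaling. miR-290, of a cluster that is active in embryonic stem cells, read 257, 134, 1253, 1653 and 715 and 105, 164, 168, 84.9 and 127 (2.26 ± 0.56, adjusted p = 0.00228). Of these 5, miR-130b and miR-706 did not pass in all 4 of the settings added after seeing the data. miR-491 and miR-702, also among the largest differences, were above the floor on 5 of 5 tumor arrays and on 2 and 1 of 5 normal arrays (3.19 ± 0.60 and 3.24 ± 0.43).

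**Figure D4:**
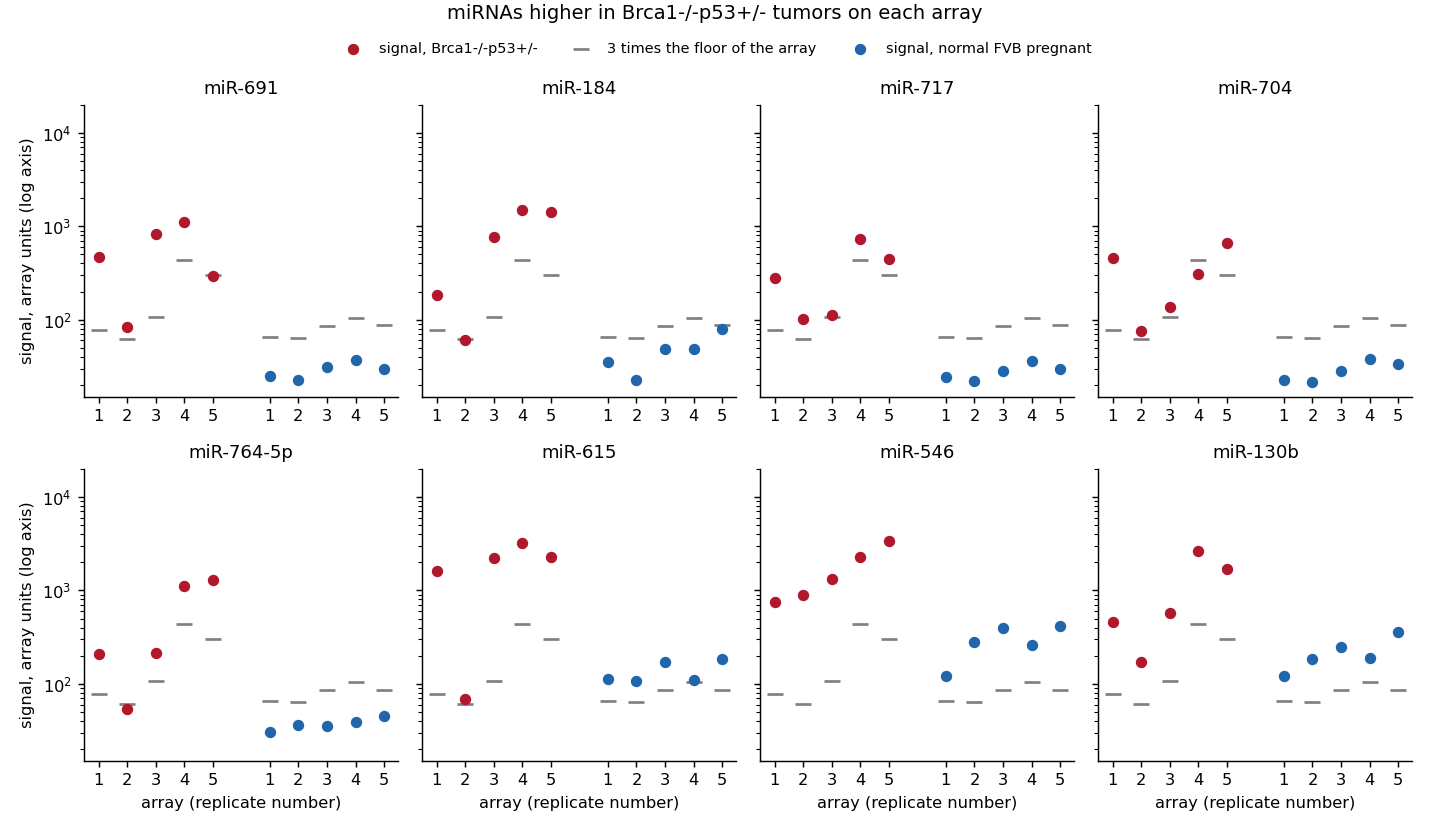
Signal of 8 miRNAs that were higher in the tumors (vertical, log axis, array units) on the 5 Brca1-/-p53+/- arrays (red) and the 5 normal FVB pregnant arrays (blue), with 3 times the floor of each array as a grey bar. The first 5 sit below the bars on all normal arrays, whereas miR-615, miR-546 and miR-130b are above them in both groups.

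Several lists of miRNAs best known from other tissues had many higher members. In the embryonic stem cell clusters 10 of 12 were higher and none lower (median 1.84), and 5 held under every scaling, among them miR-291a-5p (2.72 ± 0.38, above the floor on 3 tumor and 0 normal arrays) and miR-302d (2.47 ± 0.39, on 2 and 0). Of all miRNAs 10.2% were higher under every scaling, and the share among dim miRNAs was not counted. In the X-linked testis cluster 5 of 6 were higher (median 1.79), and 1 held under every scaling, miR-463 at 2.14 ± 0.40, above the floor on 2 tumor and 0 normal arrays, so that no fold is drawn from it. The imprinted Dlk1-Dio3 cluster had 23 higher and 3 lower miRNAs among 44 (median 1.28), beside 37.1% and 33.5% of all miRNAs, with miR-412 at 3.19 ± 0.37 and at least 3.1-fold among the higher ones and miR-382 at -3.18 ± 0.53 among the lower ones. miR-382 was above the floor on 2 of 5 tumor arrays, so the size of its difference is uncertain. No member of the stem cell or testis lists was above the floor on all 5 normal arrays, and 82 of the 84 dimmest miRNAs were higher, so the counts do not set these lists apart from other dim miRNAs. After quantile normalization 5 of the 12 and 1 of the 6 passed. In the Dlk1-Dio3 cluster 8 were higher and 4 lower after quantile normalization, 4 and 2 with the floor subtracted, and 35 and 1 at the 75th percentile.

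Markers of other cell types are given beside these results, and their counts are to be read against the 33.5% of all miRNAs and the 65 of the 84 brightest that were lower. In the stroma and smooth muscle list 4 of 5 were lower (median -2.11), with miR-143 at -2.11 ± 0.68, miR-145 at -1.95 ± 0.59 and miR-199a at -2.29 ± 0.41, while miR-214 had 0.38 ± 0.40 (adjusted p = 0.405). The list summed to 22.3 to 296 times the array median in the tumors and 188 to 298 times in the gland. Among leukocyte miRNAs 2 of 4 were lower, miR-150 at -3.02 ± 0.53 and miR-223 at -1.78 ± 0.43, and miR-142-5p had 0.38 ± 0.59 (adjusted p = 0.572). Their sums were 8.91 to 17.9 and 27.6 to 66.9. For red cells 2 of 3 were lower, miR-486 at -2.13 ± 0.47 and miR-451 at -2.08 ± 0.46, with sums of 54.6 to 228 and 277 to 595. For skeletal muscle 2 of 3 were lower, miR-133b at -3.11 ± 0.91 and miR-206 at -3.05 ± 0.73. Normal arrays differed widely in these 2, with miR-133b at 17861, 465, 18407, 4451 and 22338, so normal arrays 2 and 4 held far less muscle signal than the others. The 3 fat miRNAs were all lower (median -1.80). The 1 endothelial miRNA on the arrays, miR-126-5p, was higher (2.06), where 37.1% of all miRNAs were higher. It was above the floor on no normal array, and its call was lost after quantile normalization. None of the stroma, leukocyte or red cell miRNAs was lower under every scaling. Their part in the differences of the other miRNAs was not tested.

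Of miRNAs that the study itself names from these samples, 5 were named for normal gland and all 5 were lower in the tumors (median -3.02), namely miR-10b, miR-148a, miR-150, miR-199a and miR-486, and 3 were named for basal tumors. The count is not independent evidence of direction, since the lists were chosen on these arrays. In the study, quantitative PCR tracked the array values weakly or not at all for miR-135b and strongly for miR-505. miR-135b read 342, 70.8, 135, 702 and 647 in the tumors and 28.8, 132, 355, 141 and 140.0 in the gland, with overlapping groups, and was higher by 1.29 ± 0.45 (adjusted p = 0.0182), a call that was lost after quantile normalization, with no scaling and with the floor subtracted (0.86 to 1.16, adjusted p = 0.132 to 0.259), without normal array 1 (0.99, adjusted p = 0.0510) and with tumor arrays 4 and 5 only (adjusted p = 0.107). miR-505 read 102, 62.1, 60.7, 845 and 1045 and 43.7, 210.3, 383, 136 and 205 and differed by 0.49 ± 0.48 (adjusted p = 0.376), and passed as higher under 3 scalings (1.99 to 2.62).

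The last comparison asked where Brca1-/-p53+/- tumors differed from the unweighted mean of the other 7 tumor models, which equals the difference between their changes from the common normal gland. In this test 54 miRNAs were higher (16.2% of 334) and 84 lower (25.1%), 41.3% in either direction. Without Brca1-/-p53+/- array 2 the number higher was 34. Of the 54 higher, 18 were above the floor on at least 4 of the 5 Brca1-/-p53+/- arrays. With model as a random block, in which arrays of a model share a correlated error, 0 miRNAs passed and 0 of 334 had an unadjusted p under 0.05, so each call against the other models given here was lost with that estimated correlation (adjusted p = 0.995 for each miRNA named). That is fewer than chance alone gives at that threshold. This fit sets a single Brca1-/-p53+/- model against the other 7, could hardly pass any miRNA, and so decides nothing about a single miRNA. Of the 112 miRNAs lower than in normal gland 66 were also lower than in the other models, and of the 124 higher ones 47 were also higher. The comparison shares the Brca1-/-p53+/- arrays with the first, so these overlaps are not independent. The array median is near the floor in some models. It was 1.06 to 1.45 times the floor on the C3TAg arrays and 1.31 to 1.78 times on the p53-/- arrays, but 3.99 to 9.33 times on the Brca1-/-p53+/- arrays and 3.43 to 56.5 times on those of the 5 MMTV models. A miRNA at the floor therefore has a level close to 0 in C3TAg and p53-/- tumors and well below 0 in the others. For this reason the 5 MMTV models (MMTV-C-Myc, MMTV-H2N, MMTV-Hras, MMTV-PymT and MMTV-Wnt) and the pair of C3TAg and p53-/- are also given apart.

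The miR-200 family was lower in Brca1-/-p53+/- tumors than in the mean of the other models for all 5 members, miR-141 included (-2.71 ± 0.68, adjusted p = 0.00144), and none of the 5 passed with model as a random block (adjusted p = 0.995 with an estimated correlation). miR-200a differed by -3.95 ± 0.68 (adjusted p = 1.26e-05), with a level relative to the array median of 1.63 ± 1.78 (log2, SD, n = 5), against 2.47 ± 0.95 in C3TAg (n = 5) and 4.64 ± 0.62 in p53-/- (n = 7). In the MMTV models other than MMTV-Wnt it ran from 5.20 ± 0.77 in MMTV-C-Myc (n = 4) to 8.60 ± 0.68 in MMTV-Hras (n = 5). In MMTV-Wnt tumors it was 4.65 ± 4.34 (n = 4), with array 3 at -1.84 and the others at 6.69, 7.27 and 6.47. That array lay below the lowest Brca1-/-p53+/- array for miR-200a (-0.57) and for miR-200c (-3.91 against -0.59). Levels of Brca1-/-p53+/- and C3TAg tumors were within their spread of each other. miR-200c differed by -3.53 ± 0.64, miR-429 by -3.64 ± 0.59 and miR-200b by -2.84 ± 0.61. Against the MMTV models alone the differences of these 5 lay between -4.76 for miR-200a and -3.72 for miR-200b. Against C3TAg and p53-/-, miR-429 (-2.68 ± 0.65, adjusted p = 7.23e-04), miR-200c (-2.00 ± 0.71, adjusted p = 0.016) and miR-200a (-1.93 ± 0.76, adjusted p = 0.0285) were lower too, but miR-200b and miR-141 did not pass. miR-200c was above the floor on 1 of 5 C3TAg arrays and 7 of 7 p53-/- arrays, so its difference from the C3TAg tumors cannot be read. miR-200b was above it on 0 of 5 C3TAg arrays and miR-141 on no C3TAg or p53-/- array, so not passing is no sign of likeness there.

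Beyond this family, miR-182 was lower than in the other models by -3.13 ± 0.47 (adjusted p = 2.97e-06). It was above the floor on 2 of 5 Brca1-/-p53+/- arrays, 0 of 5 C3TAg arrays and 1 of 7 p53-/- arrays, so no difference from the C3TAg and p53-/- tumors can be read. miR-497 (-2.69 ± 0.42) and miR-25 (-2.47 ± 0.38) were lower than the mean of the 7 models and than the mean of C3TAg and p53-/-. Single models were not tested. Levels of miR-25 overlapped those of MMTV-H2N (0.46 to 1.92 against 0.48 to 3.30), and levels of miR-497 overlapped those of C3TAg, for instance (-1.23 to 1.69 against 0.71 to 2.84). By contrast miR-148a (-2.80 ± 0.52), miR-203 (-2.08 ± 0.43) and miR-19b (-2.43 ± 0.37) were lower than the mean of the MMTV models but did not pass against C3TAg and p53-/-. miR-203 was above the floor on no C3TAg or p53-/- array, miR-148a on 0 of 5 and 4 of 7, and miR-19b on 2 of 5 and 0 of 7. For these 3, not passing is no sign of likeness to C3TAg and p53-/- tumors. In all, 34 of 334 miRNAs passed as lower than in both sets of models, a count that includes miR-182. Against C3TAg and p53-/- alone 136 were lower, with a median difference of -0.74 over all miRNAs. Since a miRNA at the floor reads close to 0 in those tumors, the 34 may include others whose difference cannot be read. miR-10b, which was so much lower than in normal gland, differed from the other models by -0.29 ± 0.35 (adjusted p = 0.545). Its level was 0.86 ± 1.05 in Brca1-/-p53+/- tumors and between 0.23 ± 0.17 (C3TAg) and 1.93 ± 1.10 (MMTV-Wnt) in the others, against 4.66 ± 0.47 in the gland (n = 5). miR-10b was above the floor on 0 of 5 C3TAg arrays and 1 of 7 p53-/- arrays, so its levels there cannot be read as amounts.

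Only miR-546 was higher in Brca1-/-p53+/- tumors than in both sets of models (1.31 ± 0.32 against all 7, adjusted p = 0.00124, 0.87 against the MMTV models and 2.40 against the pair). Its level was 2.35 ± 0.89, below that of MMTV-C-Myc tumors (4.54 ± 0.87) and within the spread of MMTV-H2N tumors (2.09 ± 0.42), and it was above the floor on 0 of the C3TAg and p53-/- arrays. miR-21 was higher than the mean of the other models by 1.51 ± 0.56 (adjusted p = 0.026), a call that was lost without tumor array 1, 2, 3 or 4 (adjusted p up to 0.143) and against the MMTV models alone (0.85, adjusted p = 0.205). Its mean levels in C3TAg (0.65 ± 0.54) and MMTV-H2N tumors (-1.17 ± 1.06) were the lowest of the 9 groups. miR-21 was above the floor on 1 of 5 C3TAg and 3 of 5 MMTV-H2N arrays, so its C3TAg level cannot be read as an amount. miR-451 was higher by 1.20 ± 0.45 (adjusted p = 0.0292) against all 7 and at -0.10 against the MMTV models, and its call was lost without tumor array 2 or 3. It was above the floor on 0 of 5 C3TAg arrays, so its level there cannot be read as an amount either.

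miR-135b was higher than in the other models by 1.24 ± 0.36 (adjusted p = 0.00501), miR-505 by 0.92 ± 0.29 (adjusted p = 0.00913, lost without tumor array 5 at 0.0853), miR-717 by 1.89 ± 0.28 and miR-412 by 1.55 ± 0.29. Against the MMTV models they differed by 1.78, 1.52, 2.72 and 2.42, and against C3TAg and p53-/- by -0.11, -0.56, -0.20 and -0.62, where none passed. miR-135b was above the floor on 5 of 5 Brca1-/-p53+/- arrays and on no C3TAg or p53-/- array. miR-505 and miR-717 were also above it on no C3TAg or p53-/- array, and miR-412 on 1 C3TAg array only. Not passing is therefore no sign of likeness to C3TAg and p53-/- tumors for any of them. Quantitative PCR in the study tracked the array values weakly or not at all for miR-135b and modestly for miR-412. miR-615, so far above normal gland, differed from the other models by 0.15 ± 0.49 (adjusted p = 0.844). Its highest level was in MMTV-C-Myc tumors (6.57 ± 1.45, against 1.96 ± 1.61 here).

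**Figure D5:**
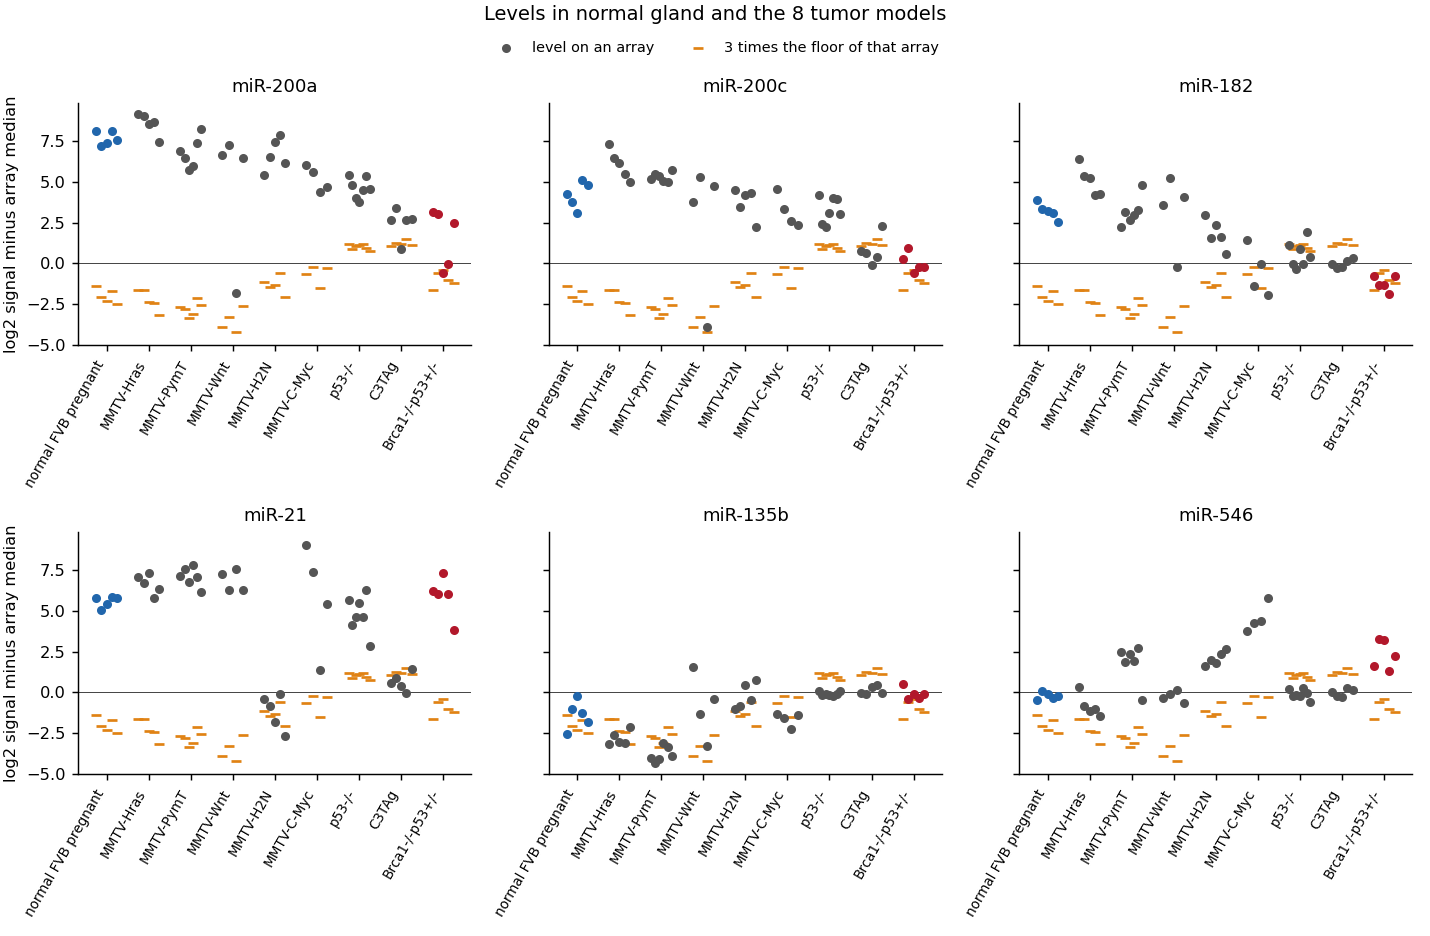
Level of 6 miRNAs (vertical, log2 signal minus array median) on each of 46 arrays by group, with normal gland in blue, Brca1-/-p53+/- tumors in red and 3 times the floor of each array in orange. For miR-200a, miR-200c and miR-182 the Brca1-/-p53+/- arrays lie below the arrays of MMTV-Hras and MMTV-PymT tumors, and on C3TAg and p53-/- arrays the orange marks lie above 0.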

How the data were processed

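Total RNA of whole tumors and glands was hybridised in 1 colour (Hy3) to custom Agilent arrays with 4 spots per miRNA. The authors read the arrays with Agilent Feature Extraction, kept 1336 spots of 334 mouse miRNAs and deposited the processed signal intensity of each spot without scaling between arrays. The deposited log2 table holds the same values set to a common median per array (8.0032 to 8.0033), and it was used as an alternative. 1 column of the intensity table that matched no labelled sample was left out.

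Here the log2 signal minus the array median was averaged over the 4 spots, and 5 against 5 arrays were compared with limma 3.58.1 (lmFit and eBayes, R 4.3.3), two-sided, with Benjamini-Hochberg adjustment over 334 miRNAs and a threshold of 0.05. The comparison with 7 models used all 46 arrays with 1 mean per group. The floor is the 5th percentile of an array's spots. The number of arrays and their signal over the floor limit the precision. The reference of brightest miRNAs held 84 of them. Where the floor was subtracted, negative values were set to 0 and 50 was added before taking log2. The script was tested on simulated data with known differences.

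Members and lists were chosen with earlier results of these data known. miRNAs were named by the size of their difference among those with non-overlapping arrays, in all and above the floor, by the largest differences in each list (at most 4), and as named by the study. Others, such as miR-546, miR-130b, miR-706, miR-290, miR-15b, miR-497, miR-152, miR-20b and miR-141, were chosen after their values were seen. Sequences are those of RefSeq: 33 of 34 names sought were matched, 27 of them with the arm assigned by hand because the array names give none. Python used numpy 2.4.6, pandas 2.3.3 and matplotlib 3.10.9.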

Additional observations from a re-analysis of the deposited data

Results flagged for a closer look

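A single array lay far from the other 4 of its group (Dixon's criterion, critical value 0.710) in 11 of 182 pairs of a group and a named miRNA, and chance gives about 1 in 20. All levels are log2 signal minus the array median. In the Brca1-/-p53+/- tumors the array apart was the lowest for miR-183 (-2.26), miR-30e (-2.44) and miR-142-5p (-1.57), and the highest for miR-805 (2.55), miR-290 (3.15) and miR-133b (3.84). In normal gland it was the highest for let-7a (8.26), let-7f (7.11), let-7g (7.25), miR-98 (5.32) and miR-19b (4.31).

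The change from normal gland differed between Brca1-/-p53+/- tumors and the mean of the other 7 models, by the test of that difference, for 18 of the named miRNAs. All 18 calls were lost with model as a random block, under which 0 of 334 miRNAs had an unadjusted p under 0.05. That fit could hardly pass any miRNA, so the loss decides nothing about a single miRNA. The difference was negative for miR-200a (-3.95), miR-200b (-2.84), miR-200c (-3.53), miR-429 (-3.64), miR-141 (-2.71), miR-182 (-3.13), miR-203 (-2.08), miR-497 (-2.69), miR-148a (-2.80), miR-19b (-2.43) and miR-25 (-2.47). It was positive for miR-21 (1.51), miR-135b (1.24), miR-505 (0.92), miR-546 (1.31), miR-451 (1.20), miR-717 (1.89) and miR-412 (1.55).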

How the results depend on the processing

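Against normal gland, the number of higher miRNAs (124) was 207 with the brightest miRNAs as reference, 52 after quantile normalization, 82 with no scaling, 38 with the floor subtracted, 201 after floor subtraction with scaling to the 90th percentile, 28 with a local floor subtracted (added after seeing the data), 7 of 167 among miRNAs at or above the median signal and 43 of 252 among those above the floor on at least 4 arrays. The number of lower miRNAs (112) was 40 with the 75th percentile, 23 with the brightest miRNAs, 61 after quantile normalization and 27 with the 90th percentile. Leaving out 1 array in turn gave 113 to 126 higher and 104 to 117 lower. The methods' t-test gave 34 higher and 35 lower at the methods' threshold and 109 and 92 after Benjamini-Hochberg adjustment.

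Against the other 7 models, the number higher (54) was 145 with the 75th percentile, 181 with the brightest miRNAs, 23 with no scaling, 204 with the 90th percentile, 29 with a local floor, 5 of 167 at or above the median signal, 98 against the MMTV models, 24 with tumor arrays 4 and 5 only and 0 with model as a random block (0 at an unadjusted p under 0.05). The number lower (84) was 41, 26 and 43 with the 75th percentile, the brightest miRNAs and quantile normalization, 17 with the 90th percentile, 136 against C3TAg and p53-/- and 0 with the random block. Leaving out 1 array gave 34 to 59 higher and 72 to 88 lower. The 34 came without Brca1-/-p53+/- array 2.

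Differences from normal gland turned positive with the brightest miRNAs as reference for miR-183 (0.35), miR-96 (0.53), miR-30a-5p (0.28), miR-30d (0.49), miR-30e (1.98), miR-155 (2.00), miR-222 (1.64), miR-486 (0.00022), miR-143 (0.019), miR-145 (0.19), miR-451 (0.048), miR-34a (0.080), miR-98 (1.81), miR-17-5p (0.17), miR-223 (0.35), let-7a (0.35), let-7d (0.43), let-7e (0.76), let-7f (0.72), miR-20a (0.13), miR-141 (0.52), miR-221 (1.00) and miR-106a (1.68). After floor subtraction with scaling to the 90th percentile they did so for miR-183 (0.078), miR-96 (0.28), miR-30a-5p (0.065), miR-30d (0.27), miR-30e (1.61), miR-155 (1.84), miR-222 (1.45), miR-98 (1.59), miR-223 (0.16), let-7a (0.15), let-7d (0.22), let-7e (0.56), let-7f (0.52), miR-141 (0.16), miR-221 (0.85) and miR-106a (1.46). With the 75th percentile they did so for miR-155 (1.36), let-7e (0.13), let-7f (0.088), miR-30e (1.35), miR-98 (1.17), miR-221 (0.36), miR-222 (1.01) and miR-106a (1.04), and after quantile normalization for miR-30d (0.19), miR-223 (0.16), let-7e (0.43), let-7f (0.26), miR-30e (0.28), miR-98 (1.22), miR-221 (0.75), miR-222 (0.79) and miR-106a (0.52), while miR-9 turned negative (-0.060). Of miRNAs that had not passed, signs also turned with tumor arrays 1 to 3 only for miR-30e (0.50), miR-98 (0.63) and miR-505 (-0.013), with tumor arrays 4 and 5 only for miR-21 (-0.65), miR-155 (0.28), miR-19a (-0.86) and miR-142-5p (-0.69), with array weights for miR-30e (0.56), miR-98 (0.21) and miR-505 (-0.078), for miR-19a with the floor subtracted (-0.15), a local floor subtracted (-0.17) and no scaling (-0.0021), and for miR-155 without the position trend (0.044). Leaving out 1 array turned the signs of miR-155 (-0.34 to 0.058), miR-21 (-0.057 to 0.82), miR-19a (-0.29 to 0.72), miR-98 (-0.68 to 0.3) and miR-30e (-0.45 to 0.5) against normal gland and of miR-615 (-0.36 to 0.74) against the other models, none of which had passed. Against the other models, signs turned with C3TAg and p53-/- as the reference for miR-141 (0.37), miR-148a (0.31), miR-135b (-0.11), miR-505 (-0.56), miR-717 (-0.20), miR-412 (-0.62) and miR-19b (0.48), with the MMTV models for miR-451 (-0.10), and for miR-10b with the 75th percentile (0.51), the brightest miRNAs (0.84), quantile normalization (0.30), the 90th percentile (1.03) and C3TAg and p53-/- (0.59), and for miR-615 with tumor arrays 4 and 5 only (-0.052) and the MMTV models (-0.15). Scaling moved the median of all miRNAs from 0.13 to 1.63 (75th percentile), 2.26 (brightest) and 1.97 (90th percentile). The cause was not tested.

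Replicate numbers pair no samples here. Same-numbered arrays correlated at 0.27, -0.34, -0.21, 0.01 and -0.05 in their deviations from the group means, and 1 of 5 tumor arrays correlated best with its own number. With the replicate number as a block, 120 miRNAs were higher and 109 lower than in normal gland, and 53 higher and 81 lower than in the other models. Signals near the floor, on tumor arrays 1 to 3 above all, limit what can be said of dim miRNAs.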
